A study of Arabidopsis thaliana with 10 samples.

Results

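XTH19 (AT4G30290) and XTH20 (AT5G48070) are xyloglucan endotransglucosylase/hydrolase genes of Arabidopsis thaliana. They were chosen by name with earlier results of these data known, so their p-values are not those of genes picked independently of the data. Each has 1 probe set that the name table assigns to that gene alone, 253608_at for XTH19 and 248732_at for XTH20. These are 2 of the 22746 probe sets in the deposited table, and both passed the filter on low signal that kept 17059 for testing. The study measured messenger RNA of whole plants on 10 Affymetrix ATH1 arrays, which fall into 5 groups of 2 biological replicates. All plants first grew on perlite with a complete solution that held 25 µM boron and 3 mM calcium. Control plants stayed on it and were taken at ages of 19 days (control 2 d) and 21 days (control 4 d). Boron-deficient plants received a solution without boron for 2 days (age 19 days) or 4 days (age 21 days). Calcium-deficient plants received a solution without calcium, its nitrate made up with magnesium and potassium salts, for 2 days (age 19 days). No accession, mutant or transgene is named in the labels, and how many plants made up a sample is not given in the sources used here.

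Xyloglucan is the main hemicellulose that coats and links cellulose microfibrils in the growing wall of dicot plants. XTH enzymes cut a xyloglucan chain and join the new end to another xyloglucan chain or to water, which lets a wall extend or be rebuilt without losing its network. XTH17, XTH18, XTH19 and XTH20 form a group of close relatives known for expression in roots, and XTH19 and XTH20 are also known from the healing of cut Arabidopsis stems, where the transcription factor ANAC071 activates them. Boron holds pectin together by cross-linking rhamnogalacturonan II, and calcium bridges pectin chains, so both treatments withdraw a wall component other than xyloglucan. In the RefSeq annotation of TAIR10.1, XTH18 is the gene directly before XTH19 on chromosome 4, and XTH24 comes directly before XTH18. XTH20 lies on chromosome 5, and no XTH gene is among its 3 nearest neighbours on either side.

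The deposited signals had medians of 114.9 to 121.2 on the 2 d arrays and 231.6 to 243.4 on the 4 d arrays, and the sources used here do not give the scaling behind them. The arrays were quantile normalized together, and signals below are on that scale, with means ± SD (n = 2 arrays per group). Changes are differences in log2(signal + 16), which understate the fold change of low signals, and carry their standard error (SE) and limma's p, adjusted over the 17059 probe sets and called at 0.05. Day of sampling and array scaling cannot be told apart, so comparisons within a day come first. For 2 arrays against 2, full separation has a 2-sided p of 0.333 in an exact permutation test. How many of all probe sets separate in this way was not counted, so separation of arrays is given below as a description only. The marker and xyloglucan genes named below come from lists of 98 entries, of which 26 were matched to a single-gene probe set.

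XTH19 read 101.8 and 68.2 on the 2 control arrays of 2 d. The boron-deficient arrays of 2 d read 185.4 and 515.6, and the calcium-deficient arrays 421.6 and 339.7. All 4 deficient arrays lay above both controls, and the calcium-deficient values fell between the boron-deficient ones. At 4 d the control arrays read 81.9 and 72.7 and the boron-deficient arrays 148.0 and 84.6. The groups of 4 d did not overlap, but the lower boron-deficient array stood only just above the higher control.

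XTH20 read 104.9 and 113.2 on the control arrays of 2 d. The boron-deficient arrays of 2 d read 111.5 and 164.7, and the calcium-deficient arrays 183.1 and 178.7. The lower boron-deficient array lay within the control range, whereas both calcium-deficient arrays lay above every other array. At 4 d the control arrays read 26.8 and 24.6 and the boron-deficient arrays 44.4 and 34.5. These 4 arrays were the lowest of the series for XTH20. The 4 d group means stood at percentiles 4.8 (control) and 11.4 (boron-deficient) of all probe sets, so XTH20 passed the filter at the 25th percentile of the mean over all arrays only through its 2 d arrays. No measure of background was used here, so its 4 d levels may be at background and its changes at or against 4 d are values of the signal only.

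**Figure D1:**
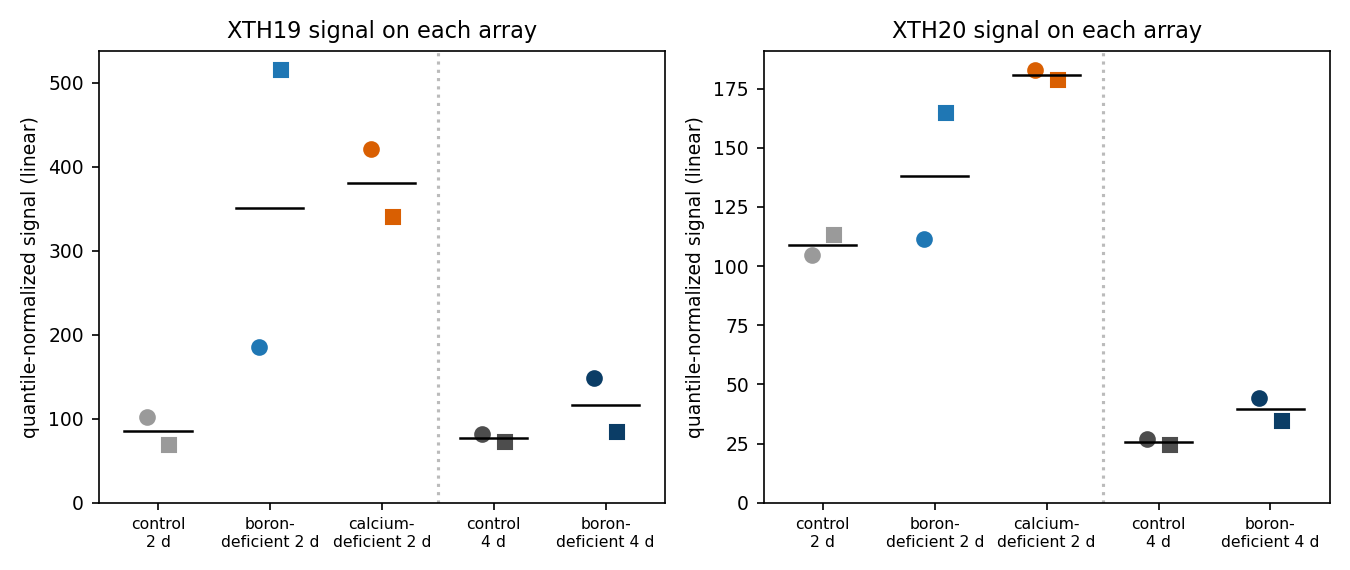
Quantile-normalized signal (linear scale) of XTH19 and XTH20 on each of the 10 arrays, with circles for replicate 1, squares for replicate 2, a black line for the group mean and a dotted line between the days. XTH19 is high in both deficient groups of 2 d, with boron-deficient arrays at 185.4 and 515.6, and XTH20 is highest in the calcium-deficient group, at 183.1 and 178.7, and lowest at 4 d.

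Boron deficiency at 2 d raised XTH19 and did not change XTH20 past the threshold. The comparison addresses the first days of boron shortage. XTH19 rose from 85.0 ± 23.8 to 350.5 ± 233.5, a log2 change of 1.72 (SE 0.40, 95% confidence interval 0.82 to 2.61, limma adjusted p = 0.0317) or 3.29-fold on the log2(signal + 16) scale. Among all probe sets tested 8.52% were called in this comparison, 5.80% higher and 2.72% lower, and 44 probe sets had a larger positive change than XTH19. XTH20 stood at 109.0 ± 5.87 and 138.1 ± 37.6, a log2 change of 0.28 (SE 0.17, 95% interval −0.09 to 0.66, adjusted p = 0.315). A rise of XTH20 of up to 0.66 on the log2 scale lies within that interval.

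The rise of XTH19 under boron loss rested on arrays that differed from each other. The boron-deficient replicates of 2 d were 1.4 apart on the log2 scale, and 0.66% of the probe sets tested had a larger gap in that pair. Without boron-deficient 2 d replicate 2, the higher array, the change was 1.02 (adjusted p = 0.0909), and without replicate 1 it was 2.43 (adjusted p = 0.00502). The call held in 4 of 10 fits with 1 array left out, and was lost without control 2 d replicate 2 (adjusted p = 0.117), either control array of 4 d (0.0570 and 0.0577) or either calcium-deficient array (0.0581 and 0.0582). Fitting the 2 d arrays alone (adjusted p = 0.0835), the control and boron-deficient groups alone (0.174) or weights for the spread of each group (0.116) also ended it, at an equal log2 change of 1.72. XTH20 was also higher in boron-deficient 2 d replicate 2 than in replicate 1, by 0.50 on the log2 scale.

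Calcium deficiency at 2 d raised both genes. This comparison asks whether the loss of another wall-binding nutrient gives a like response. The magnesium and potassium salts that replaced the nitrate went with the loss of calcium, and their part cannot be told apart from it. XTH19 rose from 85.0 ± 23.8 to 380.7 ± 57.9, a log2 change of 1.99 (SE 0.40, 95% interval 1.09 to 2.88, limma adjusted p = 0.00871) or 3.96-fold. XTH20 rose from 109.0 ± 5.87 to 180.9 ± 3.08, a log2 change of 0.66 (SE 0.17, 95% interval 0.28 to 1.03, adjusted p = 0.0225) or 1.58-fold. Of all probe sets tested 21.7% were called in this comparison, 11.8% higher and 9.93% lower, so a call alone sets neither gene apart. The change of XTH19 was exceeded by 0.422% of the probe sets tested and that of XTH20 by 8.0%. The call of XTH19 was lost without calcium-deficient replicate 1 (log2 change 1.84, adjusted p = 0.0793). That of XTH20 was lost without either calcium-deficient array (adjusted p = 0.132 and 0.0935), without control 2 d replicate 1 (0.0582) and when the 2 d arrays were fitted alone (0.0616).

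The 2 deficiencies were also compared directly at 2 d, since both had been set against the same control arrays. XTH19 was 0.27 lower in boron-deficient than in calcium-deficient plants on the log2 scale (change −0.27, SE 0.40, 95% interval −1.16 to 0.62, limma adjusted p = 0.726). XTH20 differed by −0.38 (SE 0.17, 95% interval −0.75 to 0.00, adjusted p = 0.193), with both boron-deficient arrays below both calcium-deficient arrays. Of all probe sets 10.5% were called in this comparison, 5.73% higher and 4.72% lower under boron loss. Neither gene was shown to answer differently to boron and to calcium loss, and a difference of more than 2-fold in XTH19 lies within its interval. Without boron-deficient 2 d replicate 2 the difference in XTH20 was −0.63 and passed (adjusted p = 0.0301), and that in XTH19 was −0.97 (adjusted p = 0.0631). Without boron-deficient 2 d replicate 1 the difference in XTH19 turned to 0.43.

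At 4 d of boron deficiency neither gene passed. XTH19 stood at 77.3 ± 6.54 in control and 116.3 ± 44.8 in boron-deficient plants (log2 change 0.46, SE 0.40, 95% interval −0.43 to 1.36, limma adjusted p = 1.0). XTH20, at the low signals described above, stood at 25.7 ± 1.60 and 39.4 ± 7.02 (log2 change 0.40, SE 0.17, 95% interval 0.03 to 0.78, adjusted p = 1.0; unadjusted p = 0.0373). Only 0.00586% of all probe sets were called, which is 1 probe set. Of the 17059 tested 725 had an unadjusted limma p under 0.05, fewer than would be expected if none changed. The unadjusted p of XTH20 therefore does not set it apart. For both genes each boron-deficient array exceeded both controls, which with 2 arrays against 2 does not by itself show a response. The boron response of XTH19 was smaller at 4 d than at 2 d by 1.25 on the log2 scale, which did not pass (change −1.25, SE 0.56, 95% interval −2.52 to 0.01, adjusted p = 0.381). That of XTH20 differed by 0.12 (SE 0.24, adjusted p = 0.866). In this difference of responses 0.229% of all probe sets were called, 0.0821% as higher and 0.147% as lower.

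**Figure D2:**
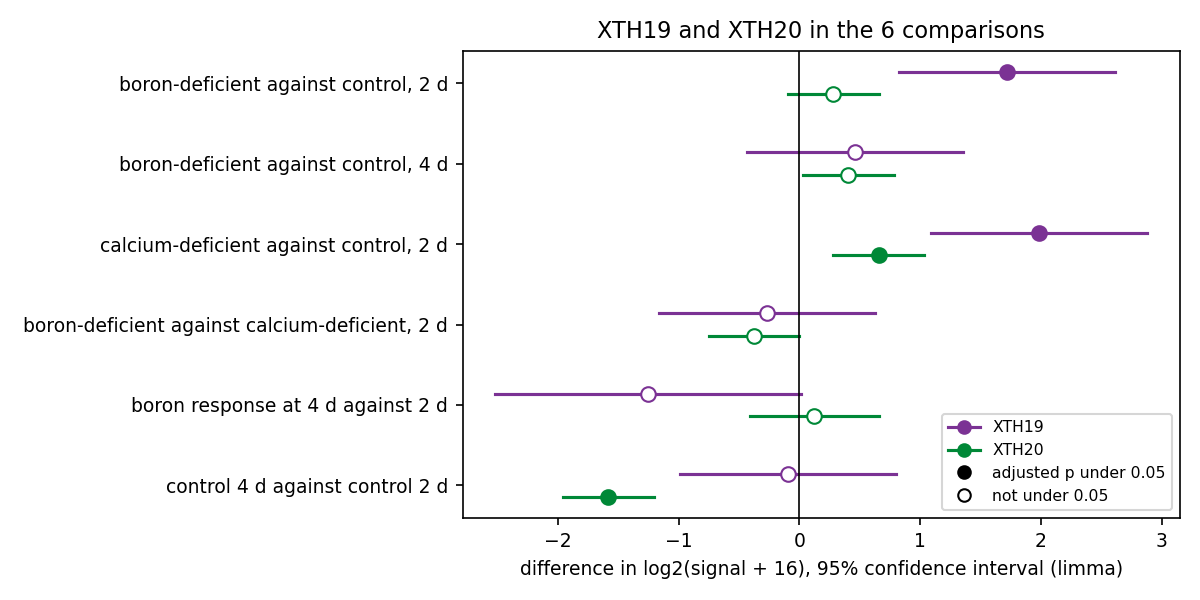
Differences in log2(signal + 16) of XTH19 (purple) and XTH20 (green) in the 6 comparisons, with 95% confidence intervals from limma and filled points where the adjusted p over 17059 probe sets is under 0.05. XTH19 is called in both deficiencies at 2 d (1.72 and 1.99), and XTH20 is called under calcium loss (0.66) and between the control groups (−1.58).

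The control groups of the 2 days showed another contrast between the genes, in which age, day and array scaling go together. The signal of XTH20 was lower at 4 d, at 25.7 ± 1.60 against 109.0 ± 5.87 at 2 d, where the 4 d level lies in the range that the filter left out for other probe sets (log2 change −1.58, SE 0.17, 95% interval −1.96 to −1.21, limma adjusted p = 0.000128). XTH19 stood at 77.3 ± 6.54 and 85.0 ± 23.8 (log2 change −0.10, SE 0.40, 95% interval −0.99 to 0.80, adjusted p = 0.876). Of all probe sets 35.9% were called in this comparison, 18.9% higher and 17.0% lower. With 1 array left out the fall of XTH20 ran from −1.65 to −1.53. It kept its call in the 10 other settings tried, from −2.04 with a pseudocount of 1 to −0.83 with the values as deposited. All these fits use the same low 4 d signals, so they do not show whether the 4 d level lies above background. The fall thus remains a value of the signal only. On the deposited scale the median change of all probe sets was 0.89, with 14324 called higher and 451 lower against 3216 and 2902 after normalization, and XTH19 changed by 0.68. That is the reverse sign of its normalized change, yet below that median.

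In order of their normalized means, XTH19 ran from control 4 d (77.3) through control 2 d (85.0) to boron loss at 4 d (116.3), boron loss at 2 d (350.5) and calcium loss at 2 d (380.7). Neighbours in this order overlapped, except that both boron-deficient arrays of 2 d exceeded both of 4 d. XTH20 ran from control 4 d (25.7) through boron loss at 4 d (39.4) to control 2 d (109.0), boron loss at 2 d (138.1) and calcium loss at 2 d (180.9). Of its neighbours only the control and boron-deficient groups of 2 d overlapped. With the deposited values both controls of 4 d read higher than both of 2 d for XTH19 (119.5 and 100.1 against 73.0 and 52.4) and lower for XTH20 (39.6 and 35.0 against 74.8 and 82.5).

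The unequal size of the changes was also read within each array, as log2 XTH19 minus log2 XTH20, in which a scaling factor of the array largely cancels. The level of this difference carries no meaning across probe sets, and its shift between groups compares the changes. It was −0.04 and −0.62 on the control arrays of 2 d, 0.66 and 1.56 on the boron-deficient arrays and 1.14 and 0.87 on the calcium-deficient arrays. All 4 deficient arrays of 2 d thus exceeded both controls, and the shift of the group mean was 1.44 under boron loss and 1.33 under calcium loss. At 4 d it was 1.19 and 1.13 on the control arrays and 1.44 and 1.0 on the boron-deficient arrays, which overlap (shift 0.06). From control 2 d to control 4 d, without a deficiency, the shift was 1.49, as large as under either deficiency at 2 d. The 4 d values rest on signals of XTH20 that may be at background. The SD between replicates, pooled over the groups, was 0.38. These shifts are given as values, and no test of them was run.

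Whole plants were sampled, so a change in the share of root in a sample and a change per root cell cannot be told apart, nor can fewer cells from less RNA per cell. Of 9 root markers 3 had a probe set of their own, and none was at 0 on any array: PYK10, a root beta-glucosidase, and the root hair expansins EXPA7 and EXPA18. Their summed signal was 1615 to 1889 on the control arrays of 2 d, 2508 and 3334 on the boron-deficient arrays and 4137 and 3089 on the calcium-deficient arrays. PYK10 made up most of that sum on every array, so the sum mainly reads this gene. All 3 markers read higher on both deficient pairs than on both controls of 2 d, EXPA18 under calcium loss only just (107.9 against 106.6). How many of all probe sets separate in this way was not counted, so this is a description only. PYK10 was called higher under boron loss (log2 change 0.73, limma adjusted p = 0.0375) and calcium loss (1.09, adjusted p = 0.00379), while EXPA7 stood at 0.43 and 0.14 and EXPA18 at 0.72 and 0.34 without passing. The boron call of PYK10 was lost under most other settings, among them the replicate block (adjusted p = 0.0529) and leaving out boron-deficient 2 d replicate 2 (log2 change 0.54, adjusted p = 0.149). The root markers had a median change of 0.72 under boron and 0.34 under calcium loss, against −0.02 over all probe sets in each. In boron-deficient 2 d replicates 1 and 2, PYK10 read 2309.8 and 2975.7, EXPA7 86.2 and 144.1 and EXPA18 111.6 and 214.6, so all 3, like XTH19, were higher in replicate 2.

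At 4 d the summed root signal was 4424 and 4625 in control and 4301 and 4136 in boron-deficient plants, of which PYK10 made up most. Of the 3 root markers only PYK10 was called higher in control plants of 4 d than of 2 d (log2 change 1.46, limma adjusted p = 0.000292). EXPA7 (−0.08, adjusted p = 0.783) and EXPA18 (0.01, 0.978) did not pass. Day and array scaling go together in this comparison, and 18.9% of all probe sets were called higher in it. XTH20 was lower, at 4 d signals that may be at background, and XTH19 differed by −0.10. Of 11 shoot markers 3 had a probe set of their own: RCA, the Rubisco activase, PRK, the phosphoribulokinase of the Calvin cycle, and LHCB4.1, an antenna protein of photosystem II. All 3 stood at percentile 98.4 or above in every group, where quantile normalization can level small differences. RCA read 18717.2 on every array of 4 d, although its deposited values there ran from 23024 to 24245. Under boron loss at 2 d the changes of the 3 shoot markers lay between −0.15 and 0.04. None was called, where 8.52% of all probe sets were. Under calcium loss RCA (−0.49, limma adjusted p = 0.00894) and PRK (−0.69, adjusted p = 0.00309) fell, and LHCB4.1 stood at −0.01. The call of RCA was lost when the 2 d arrays (adjusted p = 0.0545) or the compared groups (0.0641) were fitted alone and without calcium-deficient replicate 2 (0.0639). The part of the root share in the changes of XTH19 and XTH20 was not tested.

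**Figure D3:**
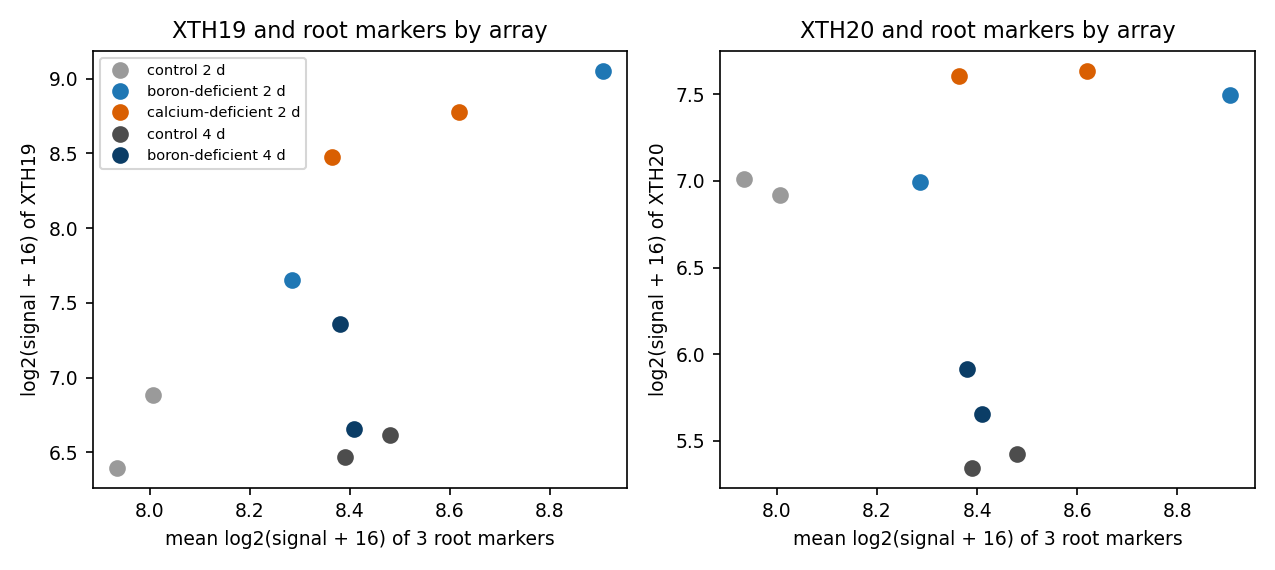
Values of log2(signal + 16) of XTH19 (left) and XTH20 (right) on each array against the mean of the 3 root markers PYK10, EXPA7 and EXPA18, coloured by group. On the 2 d arrays the controls lie low on both axes and boron-deficient replicate 2 lies at 8.91 root marker mean and 9.05 for XTH19, whereas the 4 d arrays have root marker means of 8.38 to 8.48 with XTH20 at 5.92 or below.

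Within the XTH family 10 of 33 genes had a probe set of their own and 7 passed the filter. Under boron loss at 2 d 2 of the 7 were called higher and 0 lower, where 5.80% of all probe sets were called higher and 2.72% lower. The median log2 change of the 7 was 0.28 against −0.02 over all probe sets. Beside XTH19 this was XTH32, a member of the clade that includes family enzymes with hydrolase activity. It read 200.6 and 176.5 on the control arrays and 431.0 and 416.0 on the boron-deficient arrays (log2 change 1.11, SE 0.13, limma adjusted p = 0.00258). Under calcium loss 3 of the 7 were called higher and 0 lower, where 11.8% of all probe sets were called higher and 9.93% lower, and the median was 0.26 against −0.02. These were XTH19, XTH20 and XTH32, the last with arrays of 362.7 and 352.3 (log2 change 0.87, SE 0.13, adjusted p = 0.00247). XTH32 lay higher on every deficient array than on the controls of 2 d. The boron count was 1 when the 2 d arrays were fitted alone or with group weights, and 0 when those groups were fitted alone. With the values as deposited or with median centring it was 3, and the calcium count 4, since XTH27 was then called lower. It lay between 1 and 4 when single arrays were left out. The calcium count lay between 1 (without calcium-deficient replicate 1) and 5 (without control 2 d replicate 2).

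At 4 d XTH32 read 706.3 and 814.1 in control and 730.5 and 792.3 in boron-deficient plants (log2 change 0.00, limma adjusted p = 1.0). Its boron response was smaller at 4 d than at 2 d by 1.10 on the log2 scale (change −1.10, adjusted p = 0.0537), beside −1.25 for XTH19, and neither passed. In control plants XTH32 was higher at 4 d than at 2 d (log2 change 1.92, limma adjusted p = 9.53e-06). Day and array scaling go together there, and 35.9% of all probe sets were called. XTH20 was lower in that comparison, at 4 d signals that may be at background. No family member was called under boron loss at 4 d, where only 0.00586% of all probe sets were called, so this count says little about the family. The median of the 7 was 0.00 against −0.01 over all probe sets. XTH19 and XTH20 had the largest positive changes of the 7. Neither passed, the interval of XTH19 ran from −0.43 to 1.36, and the 4 d signals of XTH20 may be at background.

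XTH18, the neighbour and close relative of XTH19, was not called in either deficiency. It read 286.9 and 611.4 on the control arrays of 2 d, 405.2 and 447.0 on the boron-deficient arrays and 496.5 and 515.4 on the calcium-deficient arrays. The deficient arrays all lay between the controls (log2 changes 0.02 and 0.26, limma adjusted p = 0.971 and 0.522). The spread of those controls decides both values. Without control 2 d replicate 1 the boron change of XTH18 was −0.51 and passed (adjusted p = 0.0480), and without replicate 2 the calcium change was 0.78 and passed (adjusted p = 0.0101). At 4 d XTH18 stood at 217.7 ± 7.45 in control and 211.9 ± 23.2 in boron-deficient plants (log2 change −0.04). It was lower in control plants of 4 d than of 2 d (log2 change −0.90, adjusted p = 0.0280), as XTH20 was, a call lost without control 2 d replicate 2 (log2 change −0.37, adjusted p = 0.0766) or either control array of 4 d (adjusted p = 0.0965 and 0.122) or with the control groups fitted alone (0.105), and 0.04 with the deposited values. For XTH17 the name table gave no single-gene probe set, and it was not analysed here.

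No other family member passed in a deficiency as normalized here. XTH27, known from leaf veins, had log2 changes of −0.68 under boron (limma adjusted p = 0.0705) and −0.48 under calcium loss (0.121) at 2 d, with every deficient array below both controls. It passed as lower with the values as deposited (−0.77 and −0.65, adjusted p = 0.0460 and 0.0451) and with median centring (−0.81 and −0.65, adjusted p = 0.0400 and 0.0463), and under boron loss without boron-deficient 2 d replicate 1 (−0.93, adjusted p = 0.0380). XTH16 stood at 0.32 and 0.05 with control arrays of 712.4 and 219.7. Without control 2 d replicate 1 it passed as higher (1.13 and 0.87, adjusted p = 0.00843 and 0.0140), and without replicate 2 as lower under calcium loss (−0.76, adjusted p = 0.0278). XTH33, a family member held at the plasma membrane, stood at −0.22 and −0.07. XTH21, XTH26 and XTH29 were left out by the filter, with group means of 32.5 to 61.3.

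**Figure D4:**
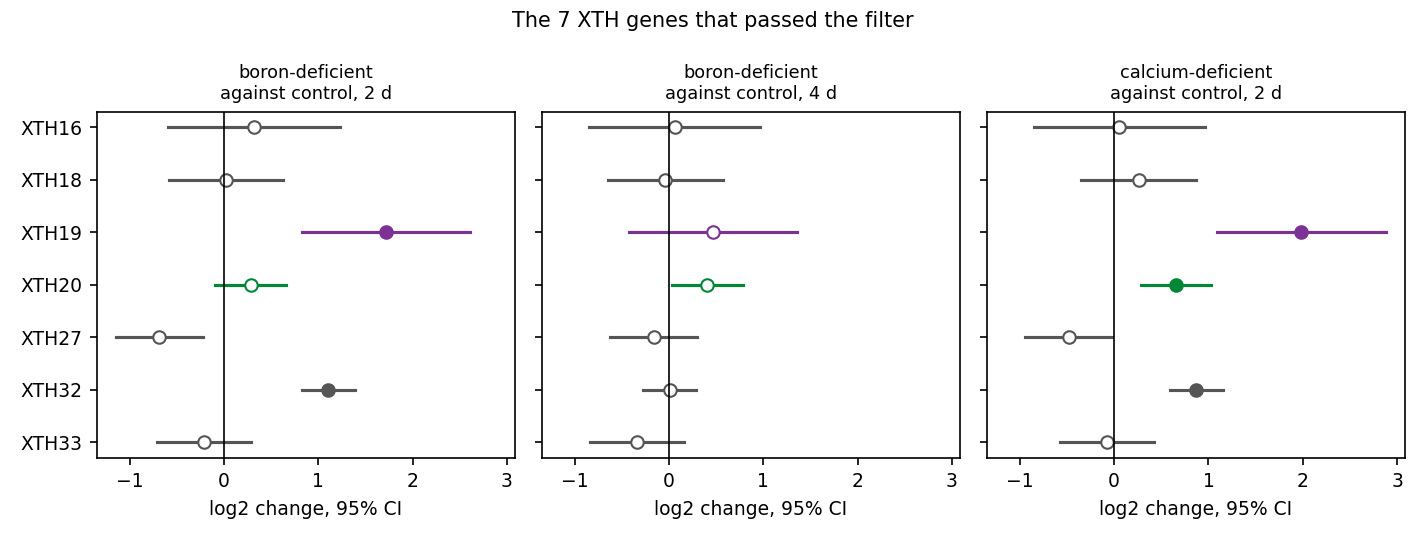
Log2 changes with 95% confidence intervals (limma) of the 7 XTH genes that passed the filter, in the 3 comparisons of deficient with control plants, with XTH19 in purple, XTH20 in green and filled points where the adjusted p is under 0.05. At 2 d XTH19 and XTH32 are called under both deficiencies and XTH20 under calcium loss, XTH27 lies at −0.68 and −0.48, and at 4 d no gene is called.

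Genes that make or trim xyloglucan were sampled thinly. Of 18 listed synthesis genes 5 had a probe set of their own, all of them CSLC glucan synthases, which build the xyloglucan backbone or are related to the enzyme that does. Under boron loss at 2 d CSLC5 rose from 108.3 ± 25.6 to 183.9 ± 4.59 (log2 change 0.70, SE 0.15, limma adjusted p = 0.0228), and the other 4 did not pass, with changes from −0.26 to 0.32. The CSLC5 call was lost when the 2 d arrays (adjusted p = 0.0878) or those groups (0.200) were fitted alone, with group weights (0.0985) and without either boron-deficient array (0.0627 and 0.0668). Under calcium loss 0 of the 5 passed, with changes from −0.16 to 0.24, the lowest p belonging to CSLC6 at 0.23 and CSLC5 at 0.24. At 4 d of boron loss 0 passed, with changes from −0.05 to 0.13, the lowest p belonging to CSLC5 at 0.13 and CSLC12 at 0.11. The share of all probe sets called higher was 5.80% for boron loss at 2 d, 11.8% for calcium loss and 0.00586% at 4 d. A count of 0 among 5 genes at 4 d therefore says little about them. Between the control groups, where day and array scaling go together, that share was 18.9%. In control plants CSLC5 (1.38, adjusted p = 0.000139), CSLC6 (0.58, adjusted p = 0.00878) and CSLC8 (0.49, adjusted p = 0.0290) were higher at 4 d than at 2 d, though the call of CSLC8 was lost under several settings, with median centring (adjusted p = 0.0942) and without control 4 d replicate 2 (0.214) among them, and that of CSLC6 without that array (0.0663).

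Of 4 genes that trim xyloglucan only the beta-glucosidase BGLC1 (AT5G20950) had a probe set of its own. It did not pass, with log2 changes of 0.16 under boron loss at 2 d, −0.30 at 4 d and 0.42 under calcium loss (limma adjusted p = 0.595, 1.0 and 0.112). Of 10 genes of cellulose synthesis in the primary wall only COB, a wall protein that guides cellulose orientation in roots, had one, at 0.34, 0.07 and 0.09 (adjusted p = 0.196, 1.0 and 0.721). Of 6 touch-responsive genes CML37 and CML38, calmodulin-like calcium sensors, were tested. They stood at −0.58 and −0.43 under boron loss at 2 d, 0.46 and −0.50 at 4 d and 0.26 and −0.08 under calcium loss, and neither passed. CML39, of the same kind, was left out by the filter and not tested, with control arrays of 76.3 and 47.9 and calcium-deficient arrays of 104.5 and 193.6 at 2 d. None of the 7 listed regulators of XTH19 and XTH20, ANAC071 among them, was matched to a single-gene probe set, so none was analysed here.

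The genes most like XTH19 in pattern were sought by Pearson correlation of log2 values over all 10 arrays among 9459 other probe sets with a single named gene. The 5 highest were AT3G27150 (r = 0.979), AT3G22850 (0.979), TBL39 (0.972), AT1G07750 (0.972) and AT5G10820 (0.971). TBL39 belongs to a family known for acetylating wall polysaccharides. Their log2 changes under boron and calcium loss at 2 d were 0.39 and 0.51 for AT3G27150, 1.12 and 1.38 for AT3G22850 and 0.65 and 0.68 for TBL39. AT1G07750 stood at 0.57 and 0.68 and AT5G10820 at 0.45 and 0.52. All 10 values are positive and below those of XTH19 in the same comparison, and the boron changes of these genes at 4 d lay between −0.01 and 0.11. Since the genes were picked for likeness to XTH19 on these same arrays, a like pattern of changes follows from the choice. By the same correlation XTH20 ranked 537th (r = 0.758).

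For XTH20 the 5 highest were ATG8D (r = 0.984), an autophagy protein, AT3G27210 (0.983), AT1G06210 (0.983), AT4G18930 (0.981) and AT1G07280 (0.981). Their log2 changes between the control groups, 4 d against 2 d, lay between −2.03 (AT4G18930) and −0.63 (AT1G06210). These falls too follow from the choice of genes by likeness to XTH20. XTH19 ranked 1379th by likeness to XTH20. Over the 6 arrays of 2 d alone the 5 most like XTH19 were AT3G62040 (r = 0.997), TBL39 (0.996), AT1G67760 (0.994), AT4G34630 (0.993) and AT4G15390 (0.993), so TBL39 was in both sets. The 5 most like XTH20 over those arrays were AT3G11580, AT5G19890, AT1G66800, AT5G26260 and AT2G46150 (r from 0.994 to 0.998), and none of them was in the set over 10 arrays. These coefficients describe few arrays that share day and scaling, and carry no test.

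**Figure D5:**
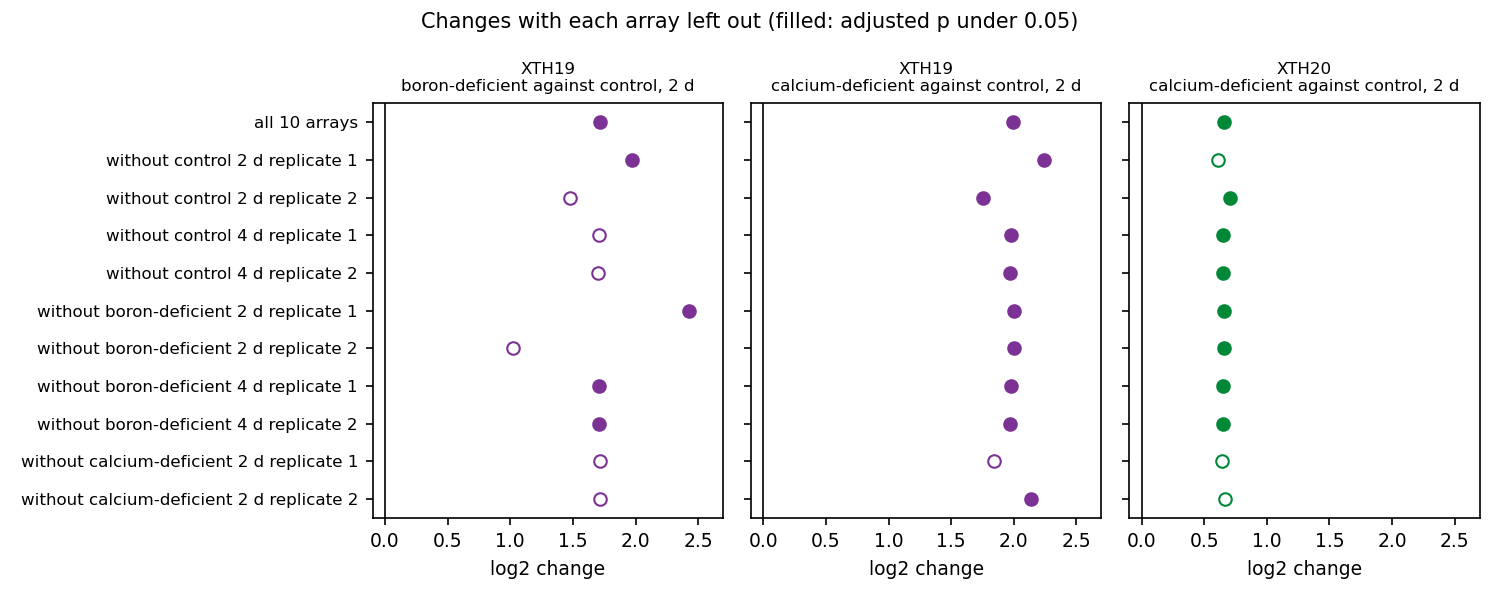
Log2 changes of XTH19 under boron loss, XTH19 under calcium loss and XTH20 under calcium loss at 2 d, with all 10 arrays and with each array left out in turn, filled where the limma adjusted p is under 0.05. The boron change of XTH19 runs from 1.02 to 2.43, its calcium change from 1.75 to 2.24 and the calcium change of XTH20 from 0.61 to 0.71.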

How the data were processed

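Per the labels, total RNA of whole plants was taken up with a plant spin-column kit and biotin-labelled cRNA was hybridized to ATH1 arrays. The authors deposited 1 linear signal intensity per probe set and array. GCOS 1.4 is named in the submitters' processing notes, whereas the target of its scaling and any later step are not given there. The protocol and the design text place the start of treatment at 17 and at 19 days, so ages at sampling are used.

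All 10 arrays were quantile normalized, log2(signal + 16) was taken, and the probe sets lowest by mean (under the 25th percentile, 5687 of 22746) were not tested. limma 3.58.1 in R 4.3.3 fitted a mean for each of the 5 groups (5 residual degrees of freedom, intensity trend), with Benjamini-Hochberg adjustment over 17059 probe sets and 95% confidence intervals, after a test on simulated data. Depth does not apply to arrays, whose number limits the precision. p-values measure the spread between samples that the labels call biological replicates.

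Of the probe sets 13513 have a single named gene in the platform's name table. The 8 gene lists (98 entries, 26 with a probe set of their own) cover the XTH family, xyloglucan synthesis and trimming, cellulose synthesis, regulators, touch response, and root and shoot markers. Named were all XTH members, up to 4 called members of other lists (or 2 with the lowest p), and the 5 genes most like each member. Members and lists were chosen with earlier results of these data known. Alternatives covered scaling, pseudocounts, the filter, spread, arrays fitted and the replicate block. Python 3.11.15 with matplotlib 3.10.9 drew the figures.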

Additional observations from a re-analysis of the deposited data

How the results depend on the processing

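With each array left out, XTH19 ran from 1.02 to 2.43 under boron loss at 2 d, 0.11 to 0.81 at 4 d, 1.75 to 2.24 under calcium loss, −0.97 to 0.43 for boron against calcium, −1.96 to −0.56 for the boron response at 4 d against 2 d and −0.34 to 0.15 between controls. XTH20 ran from 0.03 to 0.53, 0.27 to 0.53, 0.61 to 0.71, −0.63 to −0.12, −0.13 to 0.38 and −1.65 to −1.53. The change of XTH19 minus that of XTH20 ran from 0.99 to 1.89, −0.16 to 0.28, 1.04 to 1.63, −0.34 to 0.56, −1.83 to −0.94 and 1.21 to 1.80. XTH family members called ran from 1 to 4 under boron loss at 2 d, 0 to 0 at 4 d and 1 to 5 under calcium loss. XTH18 ran from −0.51 to 0.54, −0.14 to 0.06, −0.26 to 0.78, −0.31 to −0.17, −0.58 to 0.47 and −1.43 to −0.37.

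The 1.72 of XTH19 under boron loss at 2 d was no longer past the threshold with group weights (adjusted p = 0.116), the 2 d arrays alone (0.0835) or the compared groups alone (0.174), and family counts there were 1, 1 and 0. The 0.66 of XTH20 under calcium loss was no longer past it with the 2 d arrays alone (adjusted p = 0.0616). That of XTH20 for boron against calcium passed only without boron-deficient 2 d replicate 2 (−0.63, adjusted p = 0.0301). Fits within a day could not give the comparisons across days. These settings estimate the spread from fewer or reweighted arrays. The boron response of XTH20 at 4 d against 2 d turned to −0.01 with a pseudocount of 64, and XTH19 between controls to 0.68 as deposited. XTH19 minus XTH20 between controls was 0.88 with a pseudocount of 64 and 1.93 with 1. XTH18 turned to −0.02 (as deposited) and −0.06 (median centring) under boron loss, 0.03 (median centring) for 4 d against 2 d and 0.04 (as deposited) between controls. The cause of these turns was not tested.

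Replicate numbers were shared between groups, but the labels do not tie them to a batch, and correlations of the replicate differences ran from −0.25 to 0.23. With the replicate block XTH19 under boron loss was 1.72 (adjusted p = 0.0468), XTH19 under calcium loss 1.99 (0.0151) and XTH20 under calcium loss 0.66 (0.0337), and no call of either gene changed. Counts of all probe sets called ran, over all alternatives, from 44 to 2784 under boron loss at 2 d (1454 in the report), 0 to 3 at 4 d (1), 996 to 4221 under calcium loss (3706), 110 to 2495 for boron against calcium (1784), 0 to 428 for the difference of boron responses (39) and 3406 to 14775 between controls (6118).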
